A study of Homo sapiens with 6 samples.

Results

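The siRNA reagents against 17 kinases of the SRC, ABL and cell adhesion group were taken from a viability screen of 939 library siRNAs in SUM149PT, an established cell line of triple-negative inflammatory breast cancer. The wells were selected by gene identity and not by a cut on measured values, with 1 well for each of the 17 genes on every plate set. The list of members was drawn up with earlier results of these data known. They covered the SRC family (SRC, YES1, FYN, LYN, LCK, FGR and BLK), its relatives FRK, SRMS and PTK6, the inhibitory kinases CSK and MATK, the focal adhesion kinases PTK2 and PTK2B, the ABL kinases ABL1 and ABL2, and the integrin-linked kinase ILK. The LYN well is filed under the locus identifier of FYN (2534), but its symbol and transcript are those of LYN, and it is treated as LYN here.

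Each well received siRNA at 45 nM and 750 SUM149PT cells and stood for 48 hours. In 3 samples the cells were then exposed to EPA (eicosapentaenoic acid, a polyunsaturated fatty acid) at 50 µM for 72 hours, and 3 samples, here called untreated replicates 1 to 3, had no EPA. The columns of the EPA-treated samples are numbered 4 to 6 in the deposited table, and those names are kept. Both groups carried the same siRNA in the same plate position. The readout was the fluorescence of reduced resazurin, which rises with the number of living cells and with their reducing activity. Fewer cells and less reduction per cell cannot be told apart. Nothing used here says that the 6 samples came from separate cultures. The p-values therefore cover only their spread, which may be technical. The knockdown itself was not measured in the data used here, the sequences of the reagents were not used here, and 1 reagent per gene does not separate the intended target from other transcripts it may reach. The question named for the series was which druggable genes, when silenced, add to the effect of EPA.

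SRC family kinases are membrane-bound cytoplasmic tyrosine kinases that relay signals from growth factor receptors and integrins. They are held in a closed, inactive form when CSK or its relative MATK phosphorylates a tyrosine in their tail. At integrin adhesions SRC binds PTK2, known as focal adhesion kinase, and the pair phosphorylates scaffold proteins that drive spreading, migration and survival. ABL kinases act on the actin cytoskeleton beside them, and ILK links integrins to actin mainly as a scaffold.

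Cells without siRNA kept 49.99% ± 3.22 (SE) of their signal with EPA, and wells of OTP3, the negative control siRNA, kept 50.8% ± 3.50. The median library well kept 59.0% ± 3.94. In all 3 cases the samples of the groups did not overlap (exact permutation test, two-sided, p = 0.1, the smallest that 3 against 3 allows). Blank wells, which set the lower end of the scale, read 3695 to 3776 units untreated and 3860 to 3918 with EPA as sample means. EPA removed less signal at the plate margin than in the middle. Cells alone kept 92.1% in plate row 1 and 31.4% in row 9. Of the 17 member wells, 2 (BLK and ILK) lay in edge wells, meaning rows 1 and 16 and column 24, against 16.9% of library wells. Values below are log2 fluorescence relative to the median library well of the same plate and sample, tested with limma over all 939 siRNAs with Benjamini-Hochberg adjustment, and a call is an adjusted p under 0.05. Because the plate position matters, each call is set beside median polish, which takes plate row and column effects out, and beside centring on OTP3 in place of the library median.

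Relative to the library median, the PTK6 and SRC wells had the largest falls with EPA among the members. Against the OTP3 wells of the plate row ABL2 fell more than SRC, as given below. PTK6, also called breast tumour kinase, is a SRC relative without a lipid anchor. Its well read 34155, 33664 and 30313 units in the untreated replicates and 7481, 7351 and 8230 with EPA. The treated wells fell far below the untreated ones with no overlap, to 1.98 times the blank level. The share of signal left was 23.5% ± 1.21 (SE), and 13.1% ± 1.04 after subtraction of the blank wells. On the log2 scale PTK6 stood at 0.41 untreated and at -0.94 with EPA, a difference of -1.35 (SE 0.189, 95% interval -1.78 to -0.93, adjusted p = 0.000807), the 22nd lowest of 939. Median polish gave -1.52 and OTP3 centring -0.83, and both passed. Cells alone in the same plate row kept 44.2% ± 2.36, and relative to them PTK6 moved by -0.91 ± 0.0702 (SE, n = 3 each). It was the only one of the 17 members for which all treated values lay below all untreated values on that scale (exact permutation p = 0.1, adjusted over 17 members 0.17). Of all library siRNAs 9.37% lay below in the same way, so this count does not set the members apart.

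SRC, the founding member of the family, read 26401, 24358 and 29971 untreated and 7638, 7769 and 7516 with EPA. The 3 treated wells lay within 253 units of each other, all below the untreated ones, at 1.97 times the blank level. The share of signal left was 28.4% ± 1.75 (SE), and 16.2% ± 1.19 after blank subtraction, beside 43.5% ± 2.69 for OTP3 on the same plate. Relative to the library, SRC went from 0.42 above the median untreated to -0.58 with EPA, a difference of -1.00 (SE 0.150, 95% interval -1.34 to -0.66, adjusted p = 0.00108). It passed after median polish (-0.83) and with OTP3 centring (-0.61). The comparison with siRNA-free cells at the same height of the plate came out differently. Cells alone in row 11 of that plate, 1 well, kept 27.96% ± 2.11, as much as SRC wells, and the difference from them was 0.031 ± 0.107 (SE), with overlapping groups. The 2 OTP3 wells of that row kept 33.8% ± 1.62, and against these SRC moved by -0.25 ± 0.0534, with no overlap. No p-value was computed for that comparison. The 5 library wells that adjoin the SRC well kept 59.7% by their median. The lower response of SRC was thus measured against the library and against OTP3, and not against cells alone in its row.

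ABL2 was the third member lower with EPA both relative to the library median and after median polish. It encodes the ABL kinase also called ARG, which binds actin filaments directly. Wells read 36794, 38417 and 33976 untreated and 14823, 12892 and 11226 with EPA, so that 35.7% ± 3.13 (SE) was left. Its difference was -0.81 (SE 0.141, 95% interval -1.12 to -0.50, adjusted p = 0.00198), and -0.58 after median polish (adjusted p = 0.0126). With OTP3 centring ABL2 stood at -0.42 and no longer passed (adjusted p = 0.0774). Among the 20 library wells of its plate row it had the lowest difference. In their own rows PTK6 was the 3rd lowest of 20, SRC the 3rd lowest of 19 and FYN the 4th lowest of 20. OTP3 in the row of ABL2 kept 49.05% ± 4.88 and cells alone 43.2% ± 7.32. Against those OTP3 wells ABL2 moved by -0.46 ± 0.0963 (SE) with no overlap, beside -0.25 ± 0.0534 for SRC in its own row. The paralog ABL1 sat in the same row as ABL2 with 1 well between them. ABL1 read 32390, 32563 and 34019 untreated, close to ABL2, and 13086, 25915 and 26954 with EPA. EPA-treated replicate 4 was far below the others, at a level near ABL2. ABL1 was at 0.027 (SE 0.289, 95% interval -0.62 to 0.67), and without EPA-treated replicate 4 at 0.44 (adjusted p = 0.0184). The wells that adjoin ABL1 read 14220, 13940 and 13750 in replicates 4 to 6 by their median. ABL1 was thus close to its surroundings in replicate 4 and well above them in replicates 5 and 6. Which of its treated wells was aberrant cannot be told from these values.

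FYN, LYN and FRK also had treated values below the untreated ones on the log2 scale, but by smaller amounts. FYN, a broadly expressed family member, read 18102, 15600 and 15013 untreated and 6641, 6495 and 6893 with EPA. Its treated wells were 1.72 times the blank level. The difference of -0.59 (SE 0.159, adjusted p = 0.0134) passed, but it was -0.064 after median polish (adjusted p = 0.808) and -0.21 with OTP3 centring (adjusted p = 0.441). The FYN well kept 41.1% ± 2.50 and cells alone in its row 43.4% ± 6.13. LYN, which carries both activating and inhibitory signals in blood cells, read 27946, 32166 and 20002 untreated and 14057, 9937 and 10093 with EPA. Untreated replicate 3 was the lowest of its group. LYN stood at -0.49 (SE 0.198, adjusted p = 0.0681), and at -0.67 without untreated replicate 3 (adjusted p = 0.0253). FRK, a SRC relative of epithelial tissue, read 24208, 19721 and 19250 untreated and 10223, 10683 and 10007 with EPA. FRK was at -0.34 (SE 0.164, adjusted p = 0.116) and kept 48.9% ± 3.79 of its signal. When the median siRNA was set at 0, FRK (-0.54, adjusted p = 0.0277) and LYN (-0.69, adjusted p = 0.0228) were called lower. After median polish LYN was at -0.31 (adjusted p = 0.219) and FRK at -0.27 (adjusted p = 0.192). With OTP3 centring LYN stood at 0.031 (adjusted p = 0.917) and FRK at 0.047 (adjusted p = 0.876).

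FGR was the member whose signal held up best against EPA away from the plate edge. It is a family member known from myeloid cells. Its well read 14552, 12643 and 10284 untreated and 16688, 13100 and 11754 with EPA. In raw units the groups overlapped, and 110.8% ± 16.1 (SE) was left. The neighbouring library wells lost signal, with 43.1% left by the median of the 8 adjoining wells, and cells alone in the row kept 52.7% ± 6.41. FGR thus moved from -0.96 untreated to -0.13 with EPA, a difference of 0.83 (SE 0.174, 95% interval 0.44 to 1.22, adjusted p = 0.00454). It had the highest difference of the 20 wells in its plate row and passed after median polish (0.83) and with OTP3 centring (1.22). The FGR well was already low untreated, at 24.6% ± 4.83 of OTP3 (SD, n = 3) and 3.29 times the blank level.

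ILK and CSK were called higher with EPA as well, and neither passed after median polish. ILK read 27057, 27429 and 29518 untreated and 37096, 33506 and 27782 with EPA, in row 1 of the plate. Replicates 4 and 5 were above all untreated wells, and replicate 6 was among them. The difference was 0.95 (SE 0.133, adjusted p = 0.000807), and 0.26 after median polish (adjusted p = 0.27). With OTP3 centring, where 58.1% of all siRNAs were called higher, ILK stood at 1.47 (adjusted p = 9.56e-06). Centred on the library wells of its own plate row, ILK still passed (0.46, adjusted p = 0.0362), and it had the highest difference of the 20 wells there. Cells alone in that row kept 95.6% ± 5.38 and OTP3 83.8% ± 6.41, beside 117.1% ± 10.2 for ILK. Against the OTP3 wells of the row ILK moved by 0.48 ± 0.118 (SE), with no overlap. CSK, whose loss is known to release SRC family kinases from inhibition, read 33613, 43555 and 41917 untreated and 37780, 34866 and 38569 with EPA. The wells overlapped, with 93.4% ± 7.78 left. In row 2, where CSK lay, cells alone kept 70.2% ± 7.15. CSK stood at 0.59 (SE 0.137, adjusted p = 0.0071), but at 0.13 after median polish (adjusted p = 0.489) and at 0.18 with plate row centring (adjusted p = 0.336). With OTP3 centring CSK was at 0.98 (adjusted p = 0.000299). Its difference was the 14th lowest of the 20 library wells in its row.

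The 7 members not yet described, like ABL1, LYN and FRK, were not called in EPA-treated minus untreated. PTK2 read 19207, 20830 and 20157 untreated and 16549, 15123 and 14166 with EPA. Its spread was small and 76.2% ± 3.89 of the signal was left, but its difference of 0.34 (95% interval -0.025 to 0.70, adjusted p = 0.116) did not pass. PTK2B, the related kinase PYK2, read 22083, 22473 and 24332 untreated and 19047, 12238 and 14391 with EPA, with a difference of 0.12 (95% interval -0.25 to 0.49). The intervals of both focal adhesion kinases exclude a loss as large as the value of SRC (-1.00). YES1, like SRC a broadly expressed member of the family, read 15659, 19606 and 28114 untreated and 8071, 14016 and 13083 with EPA. Its replicates spread widely in both groups, and its difference of -0.037 had an interval from -0.67 to 0.59, which does not exclude a moderate change in either direction. SRMS, a SRC relative without the regulatory tail, read 16901, 16510 and 20568 untreated and 9053, 14699 and 14782 with EPA. SRMS stood at 0.30 (95% interval -0.22 to 0.82), and at 0.57 without EPA-treated replicate 4 (adjusted p = 0.0254). In YES1, SRMS and ABL1 alike replicate 4 was the lowest of the treated wells.

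LCK and MATK gave the lowest signals of the group with and without EPA. LCK, the family kinase of T cells, read 11454, 9083 and 8830 untreated and 6163, 4964 and 5224 with EPA. MATK, the CSK relative, read 11176, 6253 and 8724 untreated and 7845, 4866 and 4554 with EPA. Treated LCK and MATK wells were at 1.40 and 1.48 times the blank level, which leaves little room to read a further loss. LCK had a difference of -0.11 (95% interval -0.43 to 0.22), but -1.06 after blank subtraction (adjusted p = 0.0316), while MATK had 0.13 (95% interval -0.28 to 0.54) and -0.79 after blank subtraction (adjusted p = 0.278). BLK, the family kinase of B cells, was the brightest member. It read 58008, 50792 and 48029 untreated and 49940, 31152 and 37098 with EPA, in row 1. BLK kept 75.4% ± 11.4 of its signal where cells alone in that row kept 92.2% ± 5.12, and its difference of 0.25 (95% interval -0.060 to 0.57) did not pass.

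Over the 17 members, EPA-treated minus untreated had 4 lower (PTK6, SRC, ABL2 and FYN) and 3 higher (ILK, FGR and CSK) and 10 not called. Over all library siRNAs 15.2% were called lower and 29.0% higher. The median member stood at 0.027 and the median siRNA at 0.20. With the median siRNA at 0, 6 members were lower and 3 higher. The shares of all siRNAs under that centring were not counted, so these counts cannot be set against the library. After median polish 3 members were lower (PTK6, SRC and ABL2) and 1 was higher (FGR), beside 14.2% and 16.3% of all siRNAs. With OTP3 centring 2 were lower (PTK6 and SRC) and 8 higher, beside 6.28% and 58.1%. The 8 were ILK, FGR, CSK, PTK2, SRMS, MATK, BLK and PTK2B. That scaling moved the median siRNA to 0.63. Of the 17 members, 6 had all treated log2 values below all untreated ones and 4 had them above, where 18.8% and 36.0% of all siRNAs did. In raw units 12 members had all treated wells below all untreated wells and 5 overlapped, where 61.7% of all siRNAs lay below.

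Members in the same plate row could be set against each other without any plate scaling, by the log2 ratio of their raw wells in each sample. There were 7 such pairs, chosen after the values were seen. PTK6 stood above PTK2 by 0.70 ± 0.121 untreated and below it by -0.99 ± 0.186 with EPA (SD, n = 3 each), a shift of -1.69 ± 0.128 (SE). The ratio of PTK6 to PTK2B shifted by -1.47 ± 0.217. SRC shifted by -1.30 ± 0.237 against SRMS and by -0.96 ± 0.316 against YES1. In these 4 pairs the treated and untreated ratios did not overlap (exact permutation p = 0.1 each, the smallest possible, adjusted over the 7 pairs 0.175). All 4 contain the PTK6 or the SRC well already called above, so they are not separate results. How many same-row pairs of the library do not overlap was not counted. The ratio of ABL1 to ABL2 shifted by 0.84 ± 0.451 with overlap (exact permutation p = 0.2), since ABL1 was near ABL2 in replicate 4 (-0.18) and well above it in replicates 5 (1.01) and 6 (1.26). PTK2 against PTK2B (0.22 ± 0.156) and YES1 against SRMS (-0.33 ± 0.168) overlapped too.

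The same siRNAs differed in their effect without EPA. Relative to the library median 5 members were lower, namely MATK (-1.53, SE 0.129), LCK (-1.34, SE 0.103), FGR (-0.96), FYN (-0.58) and PTK2 (-0.29). A further 5 were higher, namely BLK (1.11, SE 0.0995), CSK (0.71), ABL2 (0.59), SRC (0.42) and PTK6 (0.41). Over all siRNAs 35.6% were lower and 33.9% higher, so these counts do not set the members apart from the library. Some calls near the threshold were lost when 1 sample was left out. SRC stood at 0.36 without untreated replicate 3 (adjusted p = 0.0509) and PTK6 at 0.35 without untreated replicate 2 (adjusted p = 0.101), while PTK2 did not pass without untreated replicate 1 (-0.20, adjusted p = 0.232). PTK2 also missed the threshold in 4 of the other left-out fits, with values from -0.36 to -0.29 that were as large as with all samples (adjusted p from 0.0546 to 0.105). ILK passed without untreated replicate 1 (0.28, adjusted p = 0.0443) and ABL1 without EPA-treated replicate 4 (0.45, adjusted p = 0.000638). These directions are relative, because the library median lay well under the negative control. With OTP3 centring 16 of the 17 were lower and 0 higher, beside 91.8% and 0.532% of all siRNAs, and BLK alone was not called (0.031, adjusted p = 0.756). As a share of OTP3 on their plate, untreated wells ranged from 16.5% ± 4.52 (MATK) to 102.7% ± 12.4 (BLK, SD, n = 3), with SRC at 59.4% ± 2.27 and PTK6 at 62.3% ± 5.42.

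After median polish 5 members were lower untreated and 6 higher, beside 27.6% and 26.0% of all siRNAs. MATK (-0.77), LCK (-0.35), FGR (-0.50) and FYN (-0.42) were still lower and BLK (0.93), ABL2 (0.55), SRC (0.38) and PTK6 (0.53) still higher. ILK, not called before (0.19, adjusted p = 0.0945), was lower there at -0.98, and its well read 53.3% ± 1.62 of OTP3. FRK and YES1 were higher (0.39 and 0.48), while CSK (0.036) and PTK2 (-0.15) no longer passed. The median polish value of ILK and BLK is measured against other wells of row 1, which were bright in both groups, and against their plate columns. With plate row centring alone BLK stood at 0.39 and ILK at -0.60 untreated.

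With EPA, 7 members were lower than the library median, namely LCK (-1.44, SE 0.103), MATK (-1.40, SE 0.129), FYN (-1.17), PTK6 (-0.94), SRC (-0.58), FRK (-0.54) and LYN (-0.39). The 3 higher ones were BLK (1.37), CSK (1.30) and ILK (1.14). Of all siRNAs 37.0% were lower and 36.4% higher. LYN did not pass without any 1 of the EPA-treated replicates (adjusted p from 0.062 to 0.114), and without EPA-treated replicate 4 ABL1 (0.89, adjusted p = 4.67e-05) and SRMS (0.41, adjusted p = 0.02) were higher too. After median polish 7 were lower and 3 higher, beside 30.1% and 30.4%, and ILK was then among the lower (-0.72) and FRK (0.13, adjusted p = 0.319) was not called. The 3 higher ones there were BLK (0.74), ABL1 (0.62) and FGR (0.33), and CSK no longer passed (0.17, adjusted p = 0.156). With OTP3 centring 13 were lower and 3 higher, beside 64.7% and 13.5%. BLK, CSK and ILK, the 3 higher members, read 159.2% ± 2.98, 155.0% ± 32.3 and 149.0% ± 22.9 of OTP3 on their plate with EPA (SD, n = 3). BLK and ILK lay in row 1 and CSK in row 2. With plate row centring CSK was still higher (0.70), while BLK (0.095, adjusted p = 0.482) and ILK (-0.14, adjusted p = 0.27) were not called, and neither was SRC (-0.10, adjusted p = 0.429). SRC read 38.95% ± 2.98 of OTP3 with EPA and PTK6 35.3% ± 6.63, both under their untreated shares.

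The cells-alone wells of each member's own row gave a further yardstick, also chosen after the values were seen. Relative to them 9 of the 17 members moved up with EPA without overlap, 7 overlapped, and PTK6 alone moved down. Of all siRNAs 54.4% moved up without overlap and 9.37% moved down, so the counts do not set the members apart. The 9 were SRMS (1.33 ± 0.303, SE), FGR (1.09 ± 0.219), YES1 (0.99 ± 0.358), MATK (0.82 ± 0.297), PTK2 (0.78 ± 0.107), LCK (0.72 ± 0.115), PTK2B (0.56 ± 0.163), CSK (0.43 ± 0.107) and ILK (0.29 ± 0.0792). Each had an exact permutation p of 0.1, 0.17 after adjustment over the 17 members, so none passed. ABL2 (-0.25 ± 0.204), FYN (-0.044 ± 0.216) and SRC were among the 7 that overlapped. The yardstick rests on 1 or 2 wells per row and sample. Some members also had OTP3 wells in their row. Against these ABL2 (-0.46 ± 0.0963, SE) moved down without overlap, as SRC did. SRMS (1.05 ± 0.276), MATK (0.90 ± 0.271) and LCK (0.74 ± 0.155) moved up without overlap, as ILK did. YES1, LYN, BLK and ABL1 overlapped. The shares of all siRNAs on that scale were not counted.

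Other kinases of the same pathways were read from lists that overlap with no member. To set beside them, 15.2% of all siRNAs were lower and 29.0% higher in EPA-treated minus untreated, with a median of 0.20. After median polish these shares were 14.2% and 16.3%. Of 11 other cytoplasmic tyrosine kinases (the SYK, TEC, FES and ACK families), all measured, 1 was lower and 3 were higher in EPA-treated minus untreated, with a median of 0.26, and 2 and 2 after median polish. FER, a kinase of cell junctions, had 0.58 (SE 0.113, adjusted p = 0.00312) but 0.20 after median polish (adjusted p = 0.312). SYK, the kinase of immune receptors, had 0.70 (SE 0.163, adjusted p = 0.00733) and 0.64 after median polish (adjusted p = 0.0134), in an edge well. Of 19 kinases that act on actin and adhesion (the PAK, ROCK, LIMK, TESK, MYLK and MRCK kinases and CIT), all measured, 4 were lower and 4 higher, with a median of 0.068, and 2 and 3 after median polish. CDC42BPB, the CDC42 effector kinase MRCK beta, read 23825, 21759 and 24530 untreated and 4749, 5466 and 4794 with EPA. These treated wells came close to the blank level, and its difference of -1.54 (SE 0.166, adjusted p = 0.00023) was larger than that of PTK6 and was -1.17 after median polish. Its relative CDC42BPG, in an edge well and listed under an older symbol, stood at 0.60 (SE 0.103, adjusted p = 0.00198) and at 0.32 after median polish (adjusted p = 0.154).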

How the data were processed

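Per the file headers, the deposited values are raw fluorescence intensity. Blank subtraction or position correction by the authors is not given in the sources used here. The 1152 wells fill 3 plates of 16 rows by 24 columns. Headers give each column's group but no sample number of the labels, so columns were used by group. Of 939 library wells, 933 matched by locus identifier to RefSeq genes (GRCh38.p14). Fluorescence was divided by the plate's library median per sample and put on the log2 scale, with no pseudocount or filter. limma 3.58.1 (R 4.3.3; trend and robust options) fitted 1 mean per group to all library wells. Benjamini-Hochberg adjustment ran over 939 siRNAs at 0.05, two-sided. Single values used exact permutation tests (SciPy 1.17.1). Intervals are at 95%. SEs of shares left come from the spread of both groups' samples. The fit was tested on simulated data. Having 3 samples per group, and wells near the blank level, limits the precision.

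All 17 member genes are named. The members, the 2 lists of other kinases and the rules were chosen with earlier results of these data known, and from each list the 2 genes with the largest moderated statistic are named. Alternatives covered centring, blank subtraction (floor of 3 SDs of blank wells), median polish, plate row centring, edge wells, quantile normalization, a low-signal filter (2 times the TOX median, TOX being the positive control siRNA), the variance model and leaving out each sample. The 21 wells without siRNA entered no fit.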

Additional observations from a re-analysis of the deposited data

Results flagged for a closer look

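The effect of 7 siRNAs relative to the library differed between EPA-treated and untreated samples in limma's test of the difference itself. It was lower with EPA for PTK6 (-1.35, in 3 of 3 treated samples below all untreated ones), SRC (-1.00), ABL2 (-0.81) and FYN (-0.59), and higher for ILK (0.95), FGR (0.83) and CSK (0.59). In all 7 the treated and untreated log2 values did not overlap. The calls were made on these same values, so this adds no separate support. Over all library siRNAs 15.2% were called lower and 29.0% higher. Without overlap, 18.8% of all siRNAs lay below and 36.0% above. SRC, PTK6 and ABL2 were called above the library median untreated, and SRC and PTK6 below it with EPA, where ABL2 (-0.22, adjusted p = 0.0701) was not called. With plate row centring the value of SRC with EPA was -0.10 and did not pass (adjusted p = 0.429). Under both median polish and plate row centring PTK6, SRC, ABL2 and FGR passed and FYN and CSK did not. ILK passed with plate row centring (0.46) and not after median polish (0.26). Relative to cells alone in the row, SRC (0.031 ± 0.107, SE), ABL2 (-0.25 ± 0.204) and FYN (-0.044 ± 0.216) overlapped between the groups. On that scale PTK6 moved down and FGR, ILK and CSK moved up without overlap, none passing after adjustment. Of all siRNAs 9.37% moved down and 54.4% moved up without overlap there. The part of plate position in these values was not tested further, apart from the row's OTP3 wells and the fit without edge wells.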

How the results depend on the processing

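PTK6, SRC and FGR passed in EPA-treated minus untreated in the same direction under all 16 alternatives run (-2.19 to -0.83, -1.50 to -0.61 and 0.63 to 1.22). ABL2 did so in 15 of 16. The member counts moved by more than 1.5 times as follows. OTP3 centring gave 16 lower and 0 higher untreated, 13 lower with EPA, and 2 lower and 8 higher for the difference. Higher calls in the difference numbered 1 after median polish, also with blank subtraction. Without edge wells, which drops BLK and ILK, 1 was higher with EPA. Without EPA-treated replicate 4, 5 were higher with EPA and 5 in the difference (ABL1 and SRMS added), and leaving out each sample gave 3 to 5 higher and 4 to 5 lower in the difference, 3 to 5 higher and 6 to 7 lower with EPA, and 4 to 6 higher and 4 to 5 lower untreated. The shares of all siRNAs were not counted without edge wells, with a sample left out, or with blank subtraction and median polish. Those member counts therefore cannot be set against the library. With blank subtraction 50.3% of the library median was left.

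Values called before or after the change turned sign as follows, and the cause was not tested; sign changes of values called in neither fit are not listed. With OTP3 centring, untreated: SRC -0.75, YES1 -1.14, LYN -1.00, PTK6 -0.69, CSK -0.37, ABL1 -0.63, ABL2 -0.49 and ILK -0.91; with EPA: SRMS -0.65, PTK2 -0.53 and PTK2B -0.56. After median polish, untreated: FRK 0.39 and ILK -0.98; with EPA: FGR 0.33, FRK 0.13 and ILK -0.72. With blank subtraction and median polish, untreated: FRK 0.55 and ILK -1.13; with EPA: FRK 0.52 and ILK -0.92. With plate row centring, untreated: FRK 0.58 and ILK -0.60; with EPA: YES1 0.47, LYN 0.077, FRK 0.63 and ILK -0.14. No paired analysis was possible because the columns carry no replicate number of the labels.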
